A study of Mus musculus with 12 samples.

Results

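The genes of 2 partner families, the integrins and the laminins, were followed through whole livers of mice that lack Yap1 in liver epithelium, with or without the loss of 1 copy of Wwtr1, the gene of TAZ. Members were taken by symbol: integrin alpha genes (Itga), the integrin beta genes Itgb1 to Itgb8 and the genes of the laminin alpha, beta and gamma chains. The rule found 36 genes of the 41743 gene identifiers in the tables, namely 17 integrin alpha, 8 integrin beta and 11 laminin genes. Changes were tested for the 24 members that reached at least 1 TPM (a transcript level corrected for gene length and library size) in at least 3 of the 12 livers. The other 12 members stayed under that level and are given by their values. The YAP1 KO mice were on C57BL/6, had both Yap1 alleles deleted by Foxa3-Cre, and carried an EYFP reporter in the ROSA locus behind a floxed stop. Foxa3-Cre is active from the foregut endoderm onwards, so the lineage of hepatocytes and bile duct cells loses the gene. The stellate, endothelial and blood-borne cells of the liver are taken to keep it, which was not checked here. The paper proposes that this Cre line also acts in the developing kidney, which is of mesodermal origin. It reports that adults of both models lack intrahepatic bile ducts. The YKTH mice (YAP1 KO TAZ heterozygote) were on a mixed C57BL/6-FVB background. They lost 1 Wwtr1 allele in the Foxa3-Cre lineage in addition to both Yap1 alleles. Each model had its own wild-type (WT) littermates on its own background, and each of the 4 groups held 3 females of 3 to 4 months. Background, TAZ genotype and the floxed mouse line of origin differed together between the 2 sets. The reporter is described for the YAP1 KO mice only. These differences cannot be told apart in any comparison between the models.

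An integrin is a cell surface receptor made of 1 alpha and 1 beta chain, which fastens a cell to the matrix or to another cell and signals in both directions. A laminin is a cross-shaped secreted protein of 1 alpha, 1 beta and 1 gamma chain, and it is the polymer on which a basement membrane is built. In the normal liver, bile ducts and larger vessels stand on a laminin-rich basement membrane, whereas the sinusoids, where hepatocytes face the blood, have hardly any. Some integrins are carried by leukocytes, such as those built on the beta2 chain, some by platelets, and most others by epithelial and stromal cells. In whole liver RNA, more cells of a type and more RNA per cell cannot be told apart.

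Yap1 stood at 28.2 to 30.5 TPM in WT (C57BL/6) livers and 1.67 to 3.72 in YAP1 KO livers, and at 31.0 to 33.2 in WT (mixed) and 8.63 to 11.5 in YKTH livers. More Yap1 RNA thus remained in YKTH than in YAP1 KO livers, and this difference cannot be told apart from background or TAZ genotype. Wwtr1 was 7.73 to 8.38 TPM in WT (mixed) and 11.5 to 14.1 in YKTH livers, so the whole-liver level was not below WT. On TPM rescaled between all 12 livers it was 6.95 to 8.12 in WT (C57BL/6) and 12.4 to 13.8 in YAP1 KO livers. The rescaled values were 8.69 to 9.26 in WT (mixed) and 10.6 to 11.7 in YKTH livers, a smaller rise. Whether the lost copy accounts for that was not tested. The whole-liver level is a sum over cells with and without Cre and over all exons, and does not check the TAZ label. Several lists of marker genes moved as well. Of the 17 leukocyte markers tested, 12 rose in each model, and their list summed to 188 to 222 TPM in WT (C57BL/6), 438 to 652 in YAP1 KO, 154 to 265 in WT (mixed) and 576 to 627 in YKTH livers. Of 12 stellate cell and fibroblast markers, 7 rose in each model and 1 fell in YAP1 KO, and their list summed to 186 to 216 TPM in WT (C57BL/6), 493 to 642 in YAP1 KO, 158 to 195 in WT (mixed) and 403 to 521 in YKTH livers. Of 10 hepatocyte markers, 5 fell in each model and none rose. Of the 10 endothelial markers, 2 fell in each model and 1 rose in YKTH. Of all tested genes, 18.5% were called higher and 17.6% lower in YAP1 KO, and 19.4% and 18.1% in YKTH. The endothelial count of falls lay near that share. Among the leukocyte markers, Ccr2 reached 1 TPM in no WT liver and was tested only through the model livers. Whether these shifts account for any change below was not tested.

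Integrin and laminin genes moved mostly upwards in both models. In YAP1 KO livers 14 of the 24 tested members were higher than in WT littermates at an adjusted p under 0.05 (limma with Benjamini-Hochberg adjustment over all 12159 tested genes), and 0 were lower. Over all tested genes, 18.5% were called higher and 17.6% lower. In YKTH livers 14 members were higher and 2 lower, against 19.4% of all genes called higher and 18.1% lower, 36.1% of all genes being called in either direction in YAP1 KO and 37.5% in YKTH. The same 12 members were higher in both models: the laminin chains Lama5, Lamb1 and Lamc1, the epithelial and stromal integrin chains Itga3, Itga5, Itga6, Itga8, Itga9 and Itgav, and the leukocyte chains Itgal, Itgam and Itgb2. Itgb1 and Itgb5 passed the threshold in YAP1 KO only, and Itga4 and Itgb7 in YKTH only. Lama5 and Itgam reached 1 TPM in no WT liver and so entered the test through the model livers. Among the 22 members with at least 1 WT liver at 1 TPM, 12 were higher in each model and 10 in both. Fold changes were taken after rescaling each liver, which set the median change over all genes to -0.03 in both models. On TPM as deposited that median was 0.28 in YAP1 KO and 0.25 in YKTH, and 15 and 17 members were then called, all higher.

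**Figure D1:**
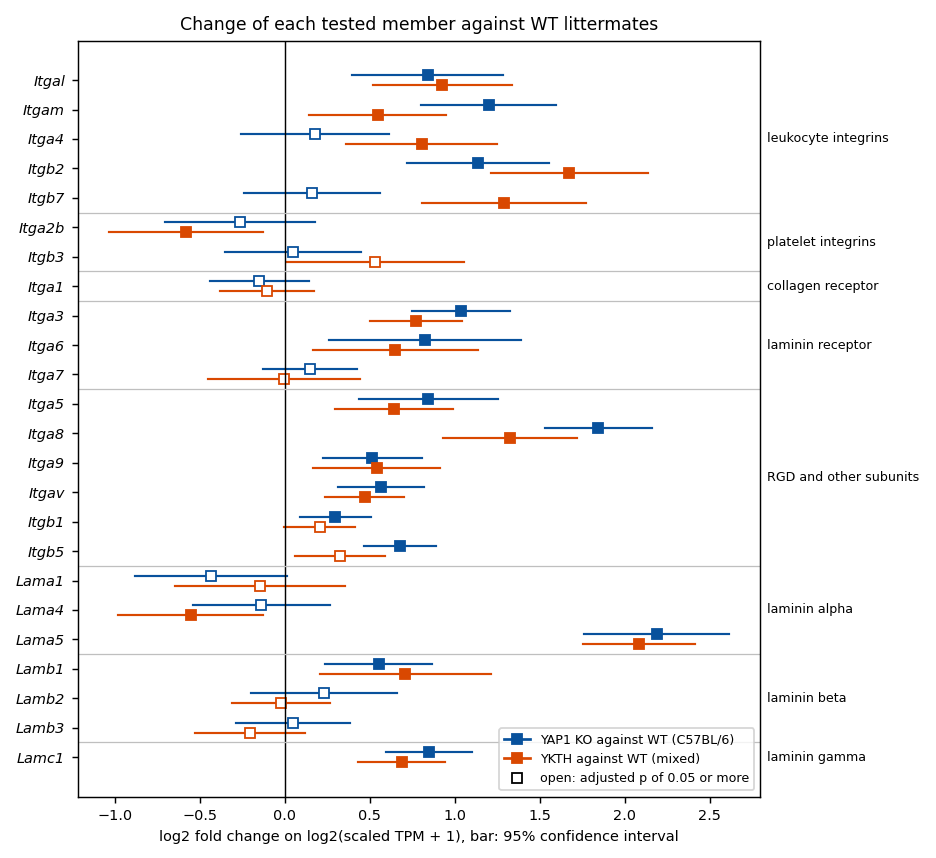
Log2 fold change of the 24 tested integrin and laminin genes in YAP1 KO (blue) and YKTH (orange) livers against their WT littermates, on log2(rescaled TPM + 1), with 95% confidence intervals. Filled squares have an adjusted p under 0.05. Lama5 stood farthest to the right in both models, at 2.19 and 2.09, and the 2 filled squares left of zero, Itga2b and Lama4, belong to YKTH.

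Lama5 encodes the alpha5 chain of laminin, found in most adult epithelial and vascular basement membranes. The gene lies on the minus strand at chr2:180176373-180225859 (GRCm38). WT (C57BL/6) livers held 0.689, 0.716 and 0.761 TPM of Lama5, and YAP1 KO livers 5.86, 9.51 and 10.1. In the other set, the WT (mixed) livers held 0.810, 0.913 and 0.929 TPM and the YKTH livers 7.34, 8.15 and 9.53. Every model liver lay far above every WT liver, and the groups overlapped in neither set. The ratio of mean TPM was 11.8 in YAP1 KO and 9.43 in YKTH. After rescaling and with 1 TPM added, the log2 change was 2.19 ± 0.19 (SE, adjusted p = 0.000101) in YAP1 KO and 2.09 ± 0.14 (adjusted p = 5.12e-05) in YKTH. The added TPM holds down the change of a gene with so low a WT level: with 0.1 TPM added instead, the log2 change was 3.01 and 2.79.

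The other laminin alpha chains behaved differently. Lama4, the alpha4 chain of vascular basement membranes, stood at 0.962, 1.40 and 1.47 TPM in WT (C57BL/6) livers and at 1.09, 1.17 and 1.98 in YAP1 KO livers, so that the groups overlapped. In YKTH livers Lama4 fell by 0.55 ± 0.18 on the log2 scale (adjusted p = 0.0466), from 1.18, 1.53 and 2.11 to 0.654, 1.01 and 1.31 TPM. That call rested on single libraries: without WT (mixed) LM226 or LM227, or without YKTH LM225 or LM250, the adjusted p was 0.0991 to 0.135, and on unscaled TPM it was 0.136. It was also lost with 0.1 TPM added or without the filter on low values. Lama1, the alpha1 chain known best from early embryonic basement membranes, was 0.98, 1.04 and 1.07 TPM in WT (C57BL/6) and 0.391, 0.521 and 1.29 in YAP1 KO livers. Its log2 change was -0.44 (adjusted p = 0.116) in YAP1 KO and -0.15 (adjusted p = 0.621) in YKTH. Without YAP1 KO LM74, the liver at 1.29 TPM, Lama1 was called lower (-0.60, adjusted p = 0.0249).

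Lamc1 encodes the gamma1 chain, the gamma chain of most laminins. WT (C57BL/6) livers held 4.18, 4.59 and 4.59 TPM and YAP1 KO livers 10.3, 11.3 and 12.2. WT (mixed) livers held 4.19, 4.92 and 5.08 TPM and YKTH livers 9.91, 10.2 and 10.3. The groups stood well apart in both sets, with a log2 change of 0.85 ± 0.11 (adjusted p = 0.0008) and 0.69 ± 0.11 (adjusted p = 0.00252). Lamb1, the beta1 chain that joins alpha5 and gamma1 in 1 heterotrimer, rose from 2.73, 2.83 and 3.52 to 5.38, 6.53 and 6.83 TPM in the C57BL/6 set, and from 1.70, 2.30 and 2.52 to 3.59, 5.82 and 6.19 in the mixed set. Its log2 change was 0.55 ± 0.14 (adjusted p = 0.0152) in YAP1 KO and 0.71 ± 0.22 (adjusted p = 0.0356) in YKTH. The Lamb1 call was lost without WT (C57BL/6) LM193 or YAP1 KO LM191 (adjusted p = 0.0586 and 0.0528), and in YKTH without WT (mixed) LM226 or LM227 or YKTH LM250 or LM251 (0.0842 to 0.117).

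Lamb2, the beta2 chain of vascular and synaptic laminins, and Lamb3, the beta3 chain of epidermal laminin, did not pass the test in either model. Lamb2 was 1.33 to 2.62 TPM in WT (C57BL/6) livers and 2.42 to 3.34 in YAP1 KO livers, a log2 change of 0.23 (95% confidence interval -0.20 to 0.66). Lamb3 stayed between 0.95 and 1.64 TPM in all 12 livers. In YKTH the log2 change was -0.02 for Lamb2 (95% confidence interval -0.31 to 0.27) and -0.20 for Lamb3 (-0.53 to 0.12).

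**Figure D2:**
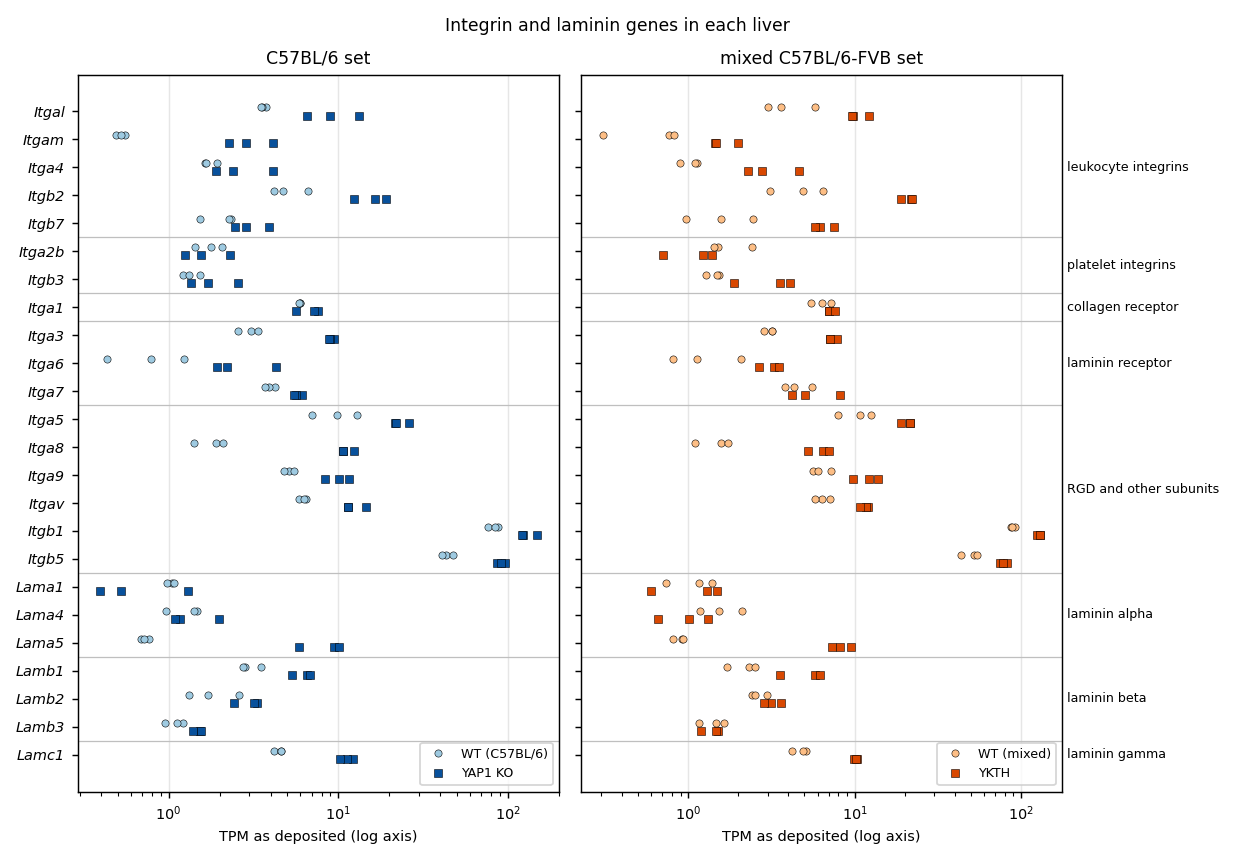
TPM as deposited (log axis) of each tested member in each of the 12 livers, WT as pale circles and model livers as dark squares, with 1 panel for each set. Lama5 rose from under 1 TPM in every WT liver to between 5.86 and 10.1 in the model livers, while Itgb1, the most abundant member, held 77.1 to 92.4 TPM in WT livers.

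These unequal changes altered the makeup of the laminin transcript pool. The 5 alpha chain genes summed to 3.51 ± 0.09 TPM (SD, n = 3) in WT (C57BL/6) and 11.9 ± 2.9 in YAP1 KO livers, and to 4.00 ± 0.79 in WT (mixed) and 11.4 ± 1.5 in YKTH livers. Lama5 made up 19.3, 20.1 and 22.4% of that sum in the WT (C57BL/6) livers and 66.4, 67.7 and 80.3% in the YAP1 KO livers. In the mixed set it made up 19.1, 20.2 and 29.0% in WT and 69.3, 74.9 and 75.4% in YKTH livers. The share of Lama4 was smaller in the model livers, from 36.3% ± 7.1 to 12% ± 2.9 and from 39.7% ± 3.8 to 8.58% ± 2.26, and that of Lama1 from 29.4% ± 1.7 to 6.06% ± 2.96 and from 27.3% ± 6.6 to 9.66% ± 3.33. Shares of 1 sum are linked, so a rise of Lama5 lowers the other shares even where their TPM does not fall. Mean Lama4 was 1.28 TPM in WT (C57BL/6) and 1.41 in YAP1 KO livers, and mean Lama1 1.10 in WT (mixed) and 1.13 in YKTH livers. In WT livers Lama5 was thus the lowest of these 3 chains by mean share, and in every model liver it was the highest.

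Among the beta chains, Lamb1 was 50.6% ± 2.0 of the sum in WT (C57BL/6) and 58.2% ± 5.6 in YAP1 KO livers, and 34.7% ± 2.8 in WT (mixed) and 52.4% ± 8.5 in YKTH livers. Lama5 stood at 0.16 ± 0.02 of the Lamc1 level in WT (C57BL/6) livers and 0.19 ± 0.03 in WT (mixed) livers, and came near it in the model livers, at 0.76 ± 0.23 in YAP1 KO and 0.82 ± 0.09 in YKTH. The ratio of Lamb1 to Lamc1 was 0.68 ± 0.09 in WT (C57BL/6), 0.56 ± 0.09 in YAP1 KO, 0.47 ± 0.13 in WT (mixed) and 0.51 ± 0.13 in YKTH livers, and WT and model livers overlapped in both sets. Shares do not depend on how livers were rescaled against each other. They are given as a description, with no test.

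**Figure D3:**
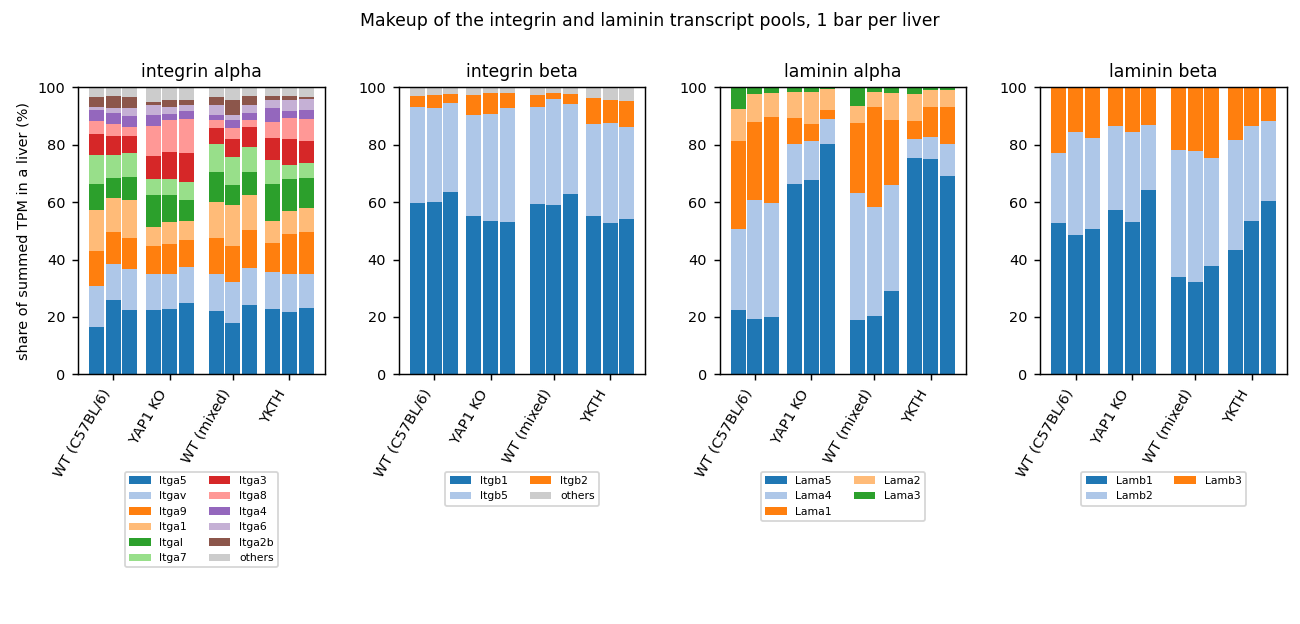
Share (%) of each gene in the summed TPM of the integrin alpha, integrin beta, laminin alpha and laminin beta genes, 1 bar for each liver, with genes under a mean share of 2% pooled as others. Lama5 fills 19.1 to 29.0% of the laminin alpha bar in WT livers and 66.4 to 80.3% in model livers, while the integrin beta bars stay led by Itgb1 and Itgb5.

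Most genes of a list of basement membrane partners were raised beside these 3 laminin chains. The list joins matrix genes with genes of cell-surface receptors and cytoplasmic linkers, namely Bcam, Cd151, Dag1, Dst and Plec. Its counts are therefore not counts of basement membrane components alone. Of 14 tested partners, 11 were higher in YAP1 KO and 8 in YKTH, and 0 were lower in either, with a median log2 change of 0.70 and 0.65. Among all tested genes 18.5% and 19.4% were called higher. Nid1 encodes nidogen, which links the laminin network to type IV collagen by binding the gamma1 chain. It was 4.11 to 5.47 TPM in WT (C57BL/6) and 64.9 to 74.2 in YAP1 KO livers, and 4.56 to 6.32 in WT (mixed) and 49.0 to 64.8 in YKTH livers, a log2 change of 3.30 ± 0.13 (adjusted p = 2.84e-06) and 2.97 ± 0.16 (adjusted p = 1.84e-05). Col4a1 and Col4a2, the chains of the common type IV collagen, rose by 2.24 and 1.89 in YAP1 KO and by 1.90 and 1.63 in YKTH. Fibrillar collagens, which stellate cells and fibroblasts can make, were raised in the same livers: Col1a1 rose by 4.01 and 3.11 on the log2 scale. Of the 12 stellate cell and fibroblast markers, 7 rose in each model and 1 fell in YAP1 KO. Rescaled Acta2 overlapped with WT in both models (named after its values were seen, as was Lrat). Rescaled Lrat was 7.70 to 11.6 in WT (C57BL/6) and 3.63 to 5.63 in YAP1 KO livers, and overlapped with WT in YKTH. The part of the fibrillar collagens in the laminin result was not tested.

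**Figure D4:**
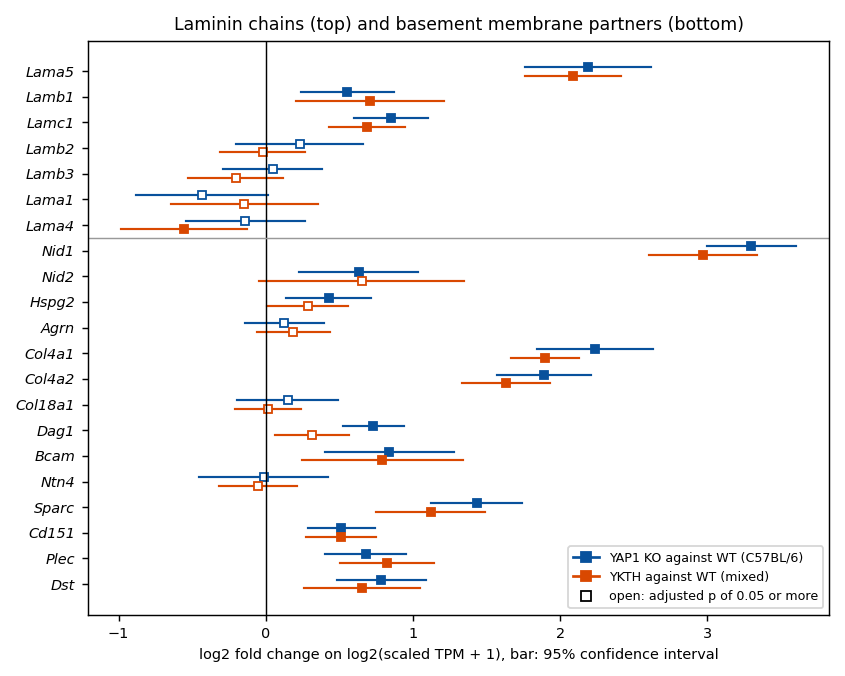
Log2 fold change with 95% confidence interval of the 7 tested laminin genes (above the line) and 14 basement membrane partners (below it) in YAP1 KO (blue) and YKTH (orange) livers; filled squares have an adjusted p under 0.05. Nid1, at 3.30 and 2.97, lay to the right of Lama5 in both models, Col4a1 stood at 2.24 and 1.90, and Agrn, Col18a1 and Ntn4 did not pass the test in either model.

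Promoter sequence is shown for 4 members because YAP and TAZ act through TEAD factors, which recognise GGAATG, and often together with AP-1, which recognises TGANTCA. RefSeq windows (GRCm38.p6, 250 bases before to 50 after a start site) matched 22 members. GGAATG on either strand was found in 3 of the 22, namely Itga10, Itgb1 and Lamb3, against 16.6% of the 27025 genes with a window, and TGANTCA in 2, Itga3 and Itga9, against 8.97%. Of the 8 members raised in both models that have a window, 0 held GGAATG and 2 held TGANTCA. Those TGANTCA matches lie at internal start sites. The Itga9 window begins at chr9:118711442 on the plus strand, while the gene begins at 118606690. Itga3 has another window at the start of the gene, chr11:95076665-95076964, with 0 matches. The GGAATG of Lamb3 also lies at an internal start site (window from chr1:193301993, gene from 193207699). Lama5, Lamb1 and Itga8, all raised in both models, are printed 5′ to 3′ on the gene's strand beside Itgb1, where the capitals mark a GGAATG that starts 7 bases before the start site:
Lama5, chr2:180225810-180226109, minus strand: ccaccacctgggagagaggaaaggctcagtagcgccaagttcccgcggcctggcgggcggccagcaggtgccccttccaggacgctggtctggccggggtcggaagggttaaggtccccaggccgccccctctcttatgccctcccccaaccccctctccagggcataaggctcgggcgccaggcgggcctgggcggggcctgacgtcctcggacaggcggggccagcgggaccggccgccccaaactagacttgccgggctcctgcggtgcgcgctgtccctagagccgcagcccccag
Lamb1, chr12:31265043-31265342, plus strand: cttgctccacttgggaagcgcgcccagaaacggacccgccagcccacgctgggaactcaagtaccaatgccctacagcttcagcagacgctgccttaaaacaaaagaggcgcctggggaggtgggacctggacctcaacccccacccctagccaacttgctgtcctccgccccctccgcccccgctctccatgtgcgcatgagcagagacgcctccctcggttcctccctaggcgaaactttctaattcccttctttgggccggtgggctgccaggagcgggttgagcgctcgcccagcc
Itga8, chr2:12301895-12302194, minus strand: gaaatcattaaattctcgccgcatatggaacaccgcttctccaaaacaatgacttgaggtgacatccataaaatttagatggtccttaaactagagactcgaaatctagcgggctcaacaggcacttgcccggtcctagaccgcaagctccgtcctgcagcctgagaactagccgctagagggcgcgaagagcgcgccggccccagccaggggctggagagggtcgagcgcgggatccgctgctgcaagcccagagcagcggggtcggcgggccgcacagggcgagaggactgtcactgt
Itgb1, chr8:128685404-128685703, plus strand: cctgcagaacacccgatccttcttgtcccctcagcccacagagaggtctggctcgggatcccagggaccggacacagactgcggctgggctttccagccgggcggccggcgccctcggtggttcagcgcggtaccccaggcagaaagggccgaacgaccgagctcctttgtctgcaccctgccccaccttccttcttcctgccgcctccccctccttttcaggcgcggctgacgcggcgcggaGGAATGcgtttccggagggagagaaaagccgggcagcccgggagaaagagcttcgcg

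The windows of Lama5 and Lamb1 are rich in G and C, at 72.7 and 63.7% of bases, and that of Itga8 holds 59.0%. A match or its absence in 300 bases is a description of the letters there and says nothing of factors bound elsewhere.

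Turning to the receptors, the laminin-binding integrins pair beta1 with alpha3, alpha6 or alpha7, and alpha6 also with beta4. Itga3 was 2.56, 3.06 and 3.37 TPM in WT (C57BL/6) and 8.84, 8.94 and 9.46 in YAP1 KO livers. It was 2.87, 3.18 and 3.19 TPM in WT (mixed) and 7.08, 7.10 and 7.86 in YKTH livers. Model and WT livers stood far apart in both sets, and the log2 change was 1.04 ± 0.13 (adjusted p = 0.000608) and 0.77 ± 0.12 (adjusted p = 0.00185). Itga6 was lower and more variable, at 0.435, 0.791 and 1.24 TPM against 1.94, 2.20 and 4.30 in the C57BL/6 set, and 0.810, 1.13 and 2.09 against 2.65, 3.27 and 3.51 in the mixed set. The log2 change of Itga6 was 0.83 ± 0.24 (adjusted p = 0.0311) and 0.65 ± 0.21 (adjusted p = 0.0419). Its call was lost in YAP1 KO without WT (C57BL/6) LM75 or LM192 or YAP1 KO LM74 or LM189 (adjusted p = 0.0538 to 0.0864), and in YKTH without WT (mixed) LM227 or LM230 or YKTH LM250 or LM251 (0.102 to 0.128). Itga7, the alpha7 chain known from muscle, held 3.70 to 4.23 TPM in WT (C57BL/6) and 5.53 to 6.15 in YAP1 KO livers, but its log2 change after rescaling was 0.15 (adjusted p = 0.368). In YKTH that change was -0.0026 (95% confidence interval -0.45 to 0.45). Itgb4, the hemidesmosome chain, was at most 0.516 TPM in any liver, as described with the members under the filter.

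The next group held integrin chains that bind the RGD motif of fibronectin, vitronectin and related ligands, together with the shared beta1 chain and with Itga9, which is not an RGD-binding chain. All 6 tested subunits of this mixed group were higher in YAP1 KO and 4 of them in YKTH. Itga8, a receptor chain for nephronectin and other RGD ligands that is known from stellate cells and other mesenchyme, changed most. It stood at 1.41, 1.91 and 2.10 TPM in WT (C57BL/6) and 10.6, 10.7 and 12.5 in YAP1 KO livers, and at 1.10, 1.58 and 1.74 in WT (mixed) and 5.23, 6.49 and 7.04 in YKTH livers. No WT liver came near a model liver in either set. The log2 change of Itga8 was 1.85 ± 0.14 (adjusted p = 5.76e-05) and 1.32 ± 0.17 (adjusted p = 0.000901), and its share of integrin alpha transcripts went from 3.99% ± 0.70 to 11.3% ± 0.7 and from 3.05% ± 0.76 to 6.84% ± 1.13. Its level relative to Itgav was 0.29 ± 0.06 in WT (C57BL/6), 0.91 ± 0.04 in YAP1 KO, 0.23 ± 0.04 in WT (mixed) and 0.55 ± 0.11 in YKTH livers.

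Itga5, the alpha chain of the classical fibronectin receptor, was the most abundant alpha chain, at 6.99, 9.81 and 12.9 TPM in WT (C57BL/6) and 21.7, 21.9 and 26.2 in YAP1 KO livers. In the mixed set it was 7.94, 10.8 and 12.6 TPM in WT and 18.9, 21.5 and 21.5 in YKTH livers. The log2 change was 0.85 ± 0.18 (adjusted p = 0.00759) and 0.65 ± 0.15 (adjusted p = 0.0121), while its share of the alpha pool hardly differed, at 21.6% ± 4.6 against 23.3% ± 1.2 and 21.4% ± 3.2 against 22.5% ± 0.8. Itgav, the alpha chain of the vitronectin receptors that can activate latent TGF-beta, was 5.92, 6.31 and 6.43 TPM in WT (C57BL/6) and 11.4, 11.5 and 14.5 in YAP1 KO livers, and 5.80, 6.39 and 7.15 in WT (mixed) and 10.8, 11.7 and 12.1 in YKTH livers. The groups did not overlap, and the log2 change was 0.57 ± 0.11 (adjusted p = 0.0053) and 0.47 ± 0.10 (adjusted p = 0.00839). Itga9, a receptor chain for tenascin-C and osteopontin, went from 4.79, 5.15 and 5.46 to 8.35, 10.1 and 11.6 TPM in the C57BL/6 set and from 5.65, 6.01 and 7.17 to 9.75, 12.2 and 13.8 in the mixed set. Its log2 change was 0.52 ± 0.13 (adjusted p = 0.015) and 0.54 ± 0.16 (adjusted p = 0.0327). The Itga9 call was lost without WT (C57BL/6) LM193 (adjusted p = 0.0571), and in YKTH without any 1 of the WT (mixed) livers or YKTH LM250 or LM251 (0.0575 to 0.104).

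Itgb1, the chain that pairs with most of these alpha subunits, was the most abundant member. It was 77.1, 83.9 and 87.9 TPM in WT (C57BL/6) and 122, 124 and 150 in YAP1 KO livers, and 87.5, 88.7 and 92.4 in WT (mixed) and 125, 130 and 131 in YKTH livers. The groups did not overlap in TPM, and after rescaling the log2 change was 0.30 ± 0.09 (adjusted p = 0.0349) in YAP1 KO and 0.21 ± 0.09 (adjusted p = 0.111) in YKTH. The YAP1 KO call was lost when any 1 of its 6 livers was left out (adjusted p = 0.0595 to 0.0875), and on unscaled TPM Itgb1 passed the threshold in YKTH as well (adjusted p = 0.00201). Itgb5, a partner of alphav for vitronectin, was 41.1, 43.1 and 47.7 TPM in WT (C57BL/6) and 86.6, 91.1 and 96.2 in YAP1 KO livers, a log2 change of 0.68 ± 0.09 (adjusted p = 0.00104). In the mixed set Itgb5 was 43.9, 52.5 and 54.5 TPM in WT and 75.1, 78.2 and 82.4 in YKTH livers, a log2 change of 0.32 ± 0.11 (adjusted p = 0.0565), which passed without YKTH LM225 (adjusted p = 0.032). Itgb1 and Itgb5 together dominated the beta chains in all livers. Itgb1 held 61.1% ± 2.0 of the beta pool in WT (C57BL/6) and 53.8% ± 1.0 in YAP1 KO livers, and 60.5% ± 2.2 in WT (mixed) and 54.1% ± 1.2 in YKTH livers.

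Genes for integrin ligands and for the cytoplasmic partners of integrins were followed as well. Of 16 tested ligand genes, 9 were higher in YAP1 KO, while 8 were higher and 1 lower in YKTH. Among all tested genes 18.5% and 19.4% were called higher, and 17.6% and 18.1% lower. The ligand genes Thbs1 and Tnc reached 1 TPM in no WT liver and were tested only through the model livers. Fn1 (fibronectin) and Vtn (vitronectin) did not pass the test in either model, at -0.23 and -0.12 in YAP1 KO and -0.42 and -0.06 in YKTH on the log2 scale. The fibrinogen genes Fga, Fgb and Fgg, which encode another plasma ligand, did not pass either, with log2 changes between 0.09 and 0.30. Spp1 (osteopontin, bound by alphav and alpha9 integrins) rose by 3.03 ± 0.33 and 1.33 ± 0.29. Icam1, the counter-receptor of the beta2 integrins on other cells, rose by 1.62 and 1.47, and Cdh1, the E-cadherin of epithelial cells and a ligand of the alphaE integrin, by 2.24 and 2.74. Ccn1, a matricellular ligand and a known YAP target, was the 1 ligand that fell in YKTH, by 0.69 (adjusted p = 0.0018), and it rose by 1.98 (adjusted p = 0.008) in YAP1 KO; it was named after its values were seen, as were Fn1, Vtn and the fibrinogen genes. Npnt, the nephronectin bound by Itga8, did not reach the filter and stood at 0.0944 to 0.357 TPM in WT (C57BL/6) and 0.881 to 1.03 in YAP1 KO livers, and at 0.073 to 0.443 in WT (mixed) and 0.384 to 0.597 in YKTH livers; it too was named after its values were seen.

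Of 22 genes for proteins on the cytoplasmic side of integrins, 8 were higher and 1 lower in YAP1 KO, and 7 were higher and 4 lower in YKTH. The shares of all tested genes were 18.5% higher and 17.6% lower in YAP1 KO, and 19.4% and 18.1% in YKTH. The count of lower genes in YKTH thus lay near that share. Fermt1, 1 of the 22, reached 1 TPM in no WT liver and was tested only through the model livers. Vcl (vinculin, which ties talin to actin) rose by 1.40 ± 0.17 and 1.03 ± 0.13. Fermt3, the kindlin of blood cells, and Parvg, the parvin of blood cells, rose by 1.02 and 0.89 in YAP1 KO and by 1.002 and 1.03 in YKTH. Of 9 genes of latent TGF-beta and its binding proteins, which alphav integrins can act on, 6 were higher and 1 lower in YAP1 KO, and 4 were higher and 1 lower in YKTH. Of these 9, Tgfb2, Tgfb3 and Ltbp2 reached 1 TPM in no WT liver and were tested only through the model livers, so the counts are no support for a change of the list. Tgfb3 rose in both, by 1.17 and 0.70, and Ltbp4, a latent TGF-beta binding protein of elastic fibres, was the 1 that fell in each, by 0.71 and 1.13. Itgb6 and Itgb8, the beta chains best known for releasing TGF-beta in epithelia, were at or near 0 in every liver, at most 0.0576 and 0.230 TPM.

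Of the 5 tested leukocyte integrin chains, 3 rose in YAP1 KO and all 5 in YKTH, with a median log2 change of 0.84 and 0.93 against -0.03 over all genes. Among all tested genes 18.5% and 19.4% were called higher. Itgam, 1 of the 5, reached 1 TPM in no WT liver and entered the count and the median only through the model livers. Itgb2 encodes the beta2 chain (CD18), which pairs with alphaL (Itgal) on most leukocytes and with alphaM (Itgam, CD11b) on myeloid cells. Itgb2 was 4.19, 4.71 and 6.64 TPM in WT (C57BL/6) and 12.3, 16.4 and 19.3 in YAP1 KO livers, and 3.10, 4.90 and 6.5 in WT (mixed) and 19.0, 21.9 and 22.2 in YKTH livers. Its log2 change was 1.14 ± 0.18 (adjusted p = 0.00215) and 1.67 ± 0.20 (adjusted p = 0.000635). Itgal was 3.50, 3.56 and 3.76 TPM in WT (C57BL/6) and 6.54, 8.93 and 13.2 in YAP1 KO livers, a log2 change of 0.84 ± 0.19 (adjusted p = 0.0112). In the mixed set it was 3.04, 3.63 and 5.79 TPM in WT and 9.70, 9.86 and 12.2 in YKTH livers, a change of 0.93 ± 0.18 (adjusted p = 0.00519).

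Itgam was low in all WT livers, at 0.492, 0.526 and 0.553 TPM in WT (C57BL/6) and 0.306, 0.763 and 0.817 in WT (mixed). It stood at 2.28, 2.86 and 4.16 TPM in YAP1 KO livers and at 1.45, 1.46 and 2.0 in YKTH livers, so every YAP1 KO liver was above every YKTH liver. The ratio of mean TPM was 5.92 in YAP1 KO and 2.60 in YKTH, and the log2 change 1.2 ± 0.17 (adjusted p = 0.00135) and 0.55 ± 0.17 (adjusted p = 0.041). The YKTH call was lost without WT (mixed) LM226 or LM227 or any 1 of the YKTH livers (adjusted p = 0.0671 to 0.114). Relative to Itgal in the same liver, Itgam was 0.14, 0.15 and 0.15 in WT (C57BL/6), 0.10, 0.13 and 0.23 in WT (mixed) and 0.15, 0.15 and 0.16 in YKTH livers, but 0.31, 0.32 and 0.35 in YAP1 KO livers. Of the exon bases of Itgam, 68.7% are shared with Gm49368, a gene model on the same strand that was listed at 0.123 TPM at most, so the split of reads between the pair is uncertain.

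Itgb7 and Itga4 form the alpha4beta7 integrin of lymphocytes and other leukocytes, and each also has another partner. Itgb7 was 1.52, 2.27 and 2.32 TPM in WT (C57BL/6) and 2.47, 2.86 and 3.93 in YAP1 KO livers, a log2 change of 0.16 (95% confidence interval -0.24 to 0.56). In the mixed set it was 0.976, 1.58 and 2.45 TPM in WT and 5.81, 6.18 and 7.50 in YKTH livers, a change of 1.29 ± 0.21 (adjusted p = 0.00257). Every YKTH liver thus lay above all 9 other livers. Itga4 was 1.64, 1.67 and 1.94 TPM in WT (C57BL/6) and 1.90, 2.40 and 4.13 in YAP1 KO livers (0.18, adjusted p = 0.499), and 0.895, 1.10 and 1.14 in WT (mixed) and 2.27, 2.78 and 4.63 in YKTH livers (0.80 ± 0.19, adjusted p = 0.0136). With quantile normalization the YKTH call of Itga4 was lost (adjusted p = 0.0664). Part of the Itga4 exons, 8.04% of bases, lies across from Cerkl, listed at up to 3.79 TPM, and the counting is not stated to use strand, so reads of the pair cannot be told apart there.

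Against Ptprc (CD45, carried by all leukocytes), the leukocyte integrins shifted in different ways. Ptprc was 3.72 to 4.64 TPM in WT (C57BL/6) and 7.43 to 14.0 in YAP1 KO livers, and 3.60 to 5.84 in WT (mixed) and 9.12 to 11.5 in YKTH livers. Itgal kept to 0.86 to 1.02 of the Ptprc level on average in the 4 groups. Itgb2 was 1.25 ± 0.20 and 1.11 ± 0.25 of Ptprc in the WT groups, 1.48 ± 0.16 in YAP1 KO and 2.02 ± 0.10 in YKTH livers. Itgb7 was 0.50 ± 0.12 and 0.38 ± 0.09 of Ptprc in the WT groups, 0.29 ± 0.09 in YAP1 KO and 0.63 ± 0.08 in YKTH livers. Among the markers of single leukocyte types, the macrophage gene Cd68 rose by 1.54 in YAP1 KO and 1.73 in YKTH. The T cell gene Cd3e did not pass the test (0.17 and 0.07, named after its values were seen). Trac was at 0 in every liver although Cd3e was detected in each, so that 0 cannot be read as an absence of T cells. Of the neutrophil markers, Ly6g stayed under 1 TPM in every liver, while S100a8 rose by 1.57 and 1.59 and S100a9 by 1.82 in YAP1 KO (in YKTH 1.38, adjusted p = 0.0636). The YKTH rise of S100a8 was uneven. Rescaled S100a8 was 14.3 in LM225, 3.53 in LM250 and 4.60 in LM251, against 1.01 to 2.44 in WT (mixed) livers. In YAP1 KO the liver LM74 was highest in Itgal, Itgam, Itgb2, Itgb7, Itga4 and Ptprc, and in WT (mixed) LM226 was highest in Itgal, Itgb2, Itgb7 and Ptprc; the YAP1 KO calls of Itgal, Itgam and Itgb2 and the YKTH calls of Itgal, Itgb2 and Itgb7 held without each single liver.

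**Figure D5:**
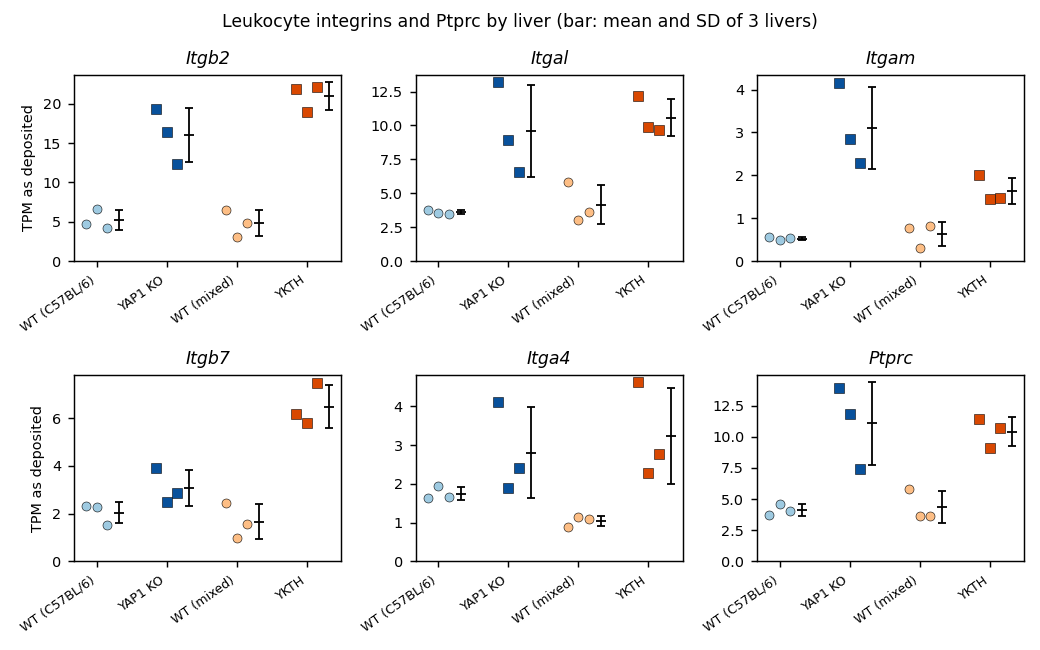
TPM as deposited of Itgb2, Itgal, Itgam, Itgb7, Itga4 and Ptprc in each liver (linear axes from 0, bar for mean and SD of 3 livers). YKTH livers lead in Itgb7 (5.81 to 7.50 TPM) and YAP1 KO livers in Itgam (2.28 to 4.16 TPM), while Itgal and Ptprc overlap between the 2 models.

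The platelet receptor chains and the collagen receptor chain Itga1 were not called higher in either model with all livers in the test. Itga2b, the alphaIIb chain of megakaryocytes and platelets, was 1.43, 1.78 and 2.07 TPM in WT (C57BL/6) and 1.26, 1.55 and 2.30 in YAP1 KO livers, and fell from 1.42, 1.51 and 2.41 to 0.704, 1.23 and 1.39 TPM in YKTH livers, by 0.58 on the log2 scale (adjusted p = 0.0487). That call was lost when any 1 of the 6 livers was left out (adjusted p = 0.0577 to 0.152) and on unscaled TPM (0.14). Itgb3, which pairs with alphaIIb on platelets and with alphav elsewhere, was 1.36, 1.72 and 2.57 TPM in YAP1 KO and 1.89, 3.54 and 4.11 in YKTH livers, against 1.21 to 1.54 in all 6 WT livers, with log2 changes of 0.05 (adjusted p = 0.854) and 0.53 (adjusted p = 0.0986). Without YKTH LM225 the YKTH change of Itgb3 was 0.79 and passed the threshold (adjusted p = 0.00427). Of the 7 platelet markers only Pf4 and Ppbp could be tested, and Pf4 rose in YAP1 KO by 1.2. Itga1, the collagen and laminin receptor chain of sinusoidal and mesenchymal cells, stayed at 5.44 to 7.65 TPM in all 12 livers, with log2 changes of -0.15 (95% confidence interval -0.44 to 0.14) and -0.11 (-0.38 to 0.17).

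Of the 12 members under the filter, 10 were at 1 TPM or less in every liver, and Lama2 and Itga10 each passed 1 TPM in a single liver. Lama2, the alpha2 chain of muscle and mesenchymal laminins, stood at 0.292, 0.347 and 0.385 TPM in WT (C57BL/6) and 0.908, 0.958 and 1.30 in YAP1 KO livers, and at 0.209, 0.293 and 0.309 in WT (mixed) and 0.720, 0.758 and 0.942 in YKTH livers. Lamc3, the gamma3 chain, went the other way, from 0.249, 0.399 and 0.516 to 0, 0.0309 and 0.0894 TPM, and from 0.412, 0.645 and 0.694 to 0.0601, 0.0641 and 0.0885. Without the filter, limma called Lama2 higher (0.47 and 0.40, adjusted p = 0.0082 and 0.00692) and Lamc3 lower (-0.47 and -0.63, adjusted p = 0.0079 and 0.0023) in both models. Itga2, a collagen receptor chain of epithelium and platelets, was 0.064 to 0.134 TPM in WT (C57BL/6) and 0.269 to 0.695 in YAP1 KO livers (adjusted p = 0.043 without the filter, and 0.0817 in YKTH). Itga10, a collagen receptor chain of cartilage, was 0.484 to 0.606 TPM in WT (C57BL/6) and 0.292 to 0.479 in YAP1 KO livers, and without the filter it was called lower there (-0.26, adjusted p = 0.0499) but not in YKTH (adjusted p = 0.294). Itga11, a collagen receptor chain of fibroblasts, reached at most 0.407 TPM and Itgae, the E-cadherin receptor chain of lymphocytes within epithelia, at most 0.582. The epithelial chains Itgb4, Itgb6 and Lama3 stayed at or under 0.516 TPM in all livers, and the bile duct markers Krt7, Cftr and Sctr were likewise under 1 TPM in every liver, WT included. Of the 7 bile duct markers tested, 3 were higher in YAP1 KO, and 2 were higher and 1 lower in YKTH. Among all tested genes 18.5% and 19.4% were called higher, and 17.6% and 18.1% lower. Cldn4, called higher in YAP1 KO only, reached 1 TPM in no WT liver and was tested only through the model livers. Cldn7 rose by 2.82 and 3.18 on the log2 scale and Sox9 by 2.10 and 1.70, whereas Epcam fell by 1.48 in YKTH. Krt19, the gene of the duct marker CK19, was tested and called in neither model (named after its values were seen). By CK19 staining the paper found no intrahepatic ducts in adult livers of either model.

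Directly compared, the models did not differ in any of the 24 tested members at an adjusted p under 0.05 (limma, Benjamini-Hochberg over all genes), where 0.0576% of all genes did (0.0247% with a higher and 0.0329% with a lower change in YAP1 KO than in YKTH). At an unadjusted p under 0.05 there were 5, beside 555 of all 12159 genes: Itga4 and Itgb7, whose change was larger in YKTH, and Itga8, Itgam and Itgb5, whose change was larger in YAP1 KO. The largest of these was Itgb7, with a change smaller by 1.12 ± 0.28 on the log2 scale in YAP1 KO than in YKTH (adjusted p = 0.665). For Lama5 the difference was 0.12 (95% confidence interval -0.39 to 0.63) and for Lamc1 0.17 (-0.13 to 0.47). WT (mixed) and WT (C57BL/6) livers likewise differed in 0 of the 24 members, against 0.173% of all genes (0.140% higher and 0.0329% lower in WT (mixed)), and in 2, Itga4 and Lamb1, at an unadjusted p under 0.05, beside 704 of all 12159 genes. Both were lower in WT (mixed), by 0.46 and 0.39 on the log2 scale, and both of these WT groups enter the difference between the models.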

How the data were processed

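RNA was sequenced from whole frozen livers of 12 female mice, 3 in each of 4 groups, and groups were taken from the sample labels. The authors mapped reads to GRCm38 with CLC Genomics Workbench and deposited TPM per gene and mouse. Their comparison columns (group means, fold changes, p-values and false discovery rates) were not used. TPM sums to 1000000 in each liver, and the reads counted in each liver cannot be read from it, so no counting interval is given. The study's methods state only a nominal read number common to all samples. The library strand is not given in the sources used here. From the deposited TPM, scaling factors were computed as a trimmed mean of log ratios to the mean log profile (30% of ratios and 5% of levels trimmed), and ranged from 0.851 to 1.22 in the fits of the single models and from 0.841 in the fit over all 12 livers. Levels are printed as deposited, shares and ratios were taken from them, and log2 fold changes are on log2(TPM/factor + 1), which understates changes of low genes. The 12159 genes that reached 1 TPM in 3 or more of the 12 livers entered limma (version 3.58.1, under R 4.3.3), as a linear fit with trended empirical Bayes variances and Benjamini-Hochberg adjustment, each model on its own 6 livers and the difference between models on all 12. The test was tried on simulated data. Alternatives were another pseudocount, filter, scaling and variance estimate, and leaving out each liver.

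The members and lists were chosen with earlier results of these data known. Members called in at least 1 model are given per liver, other members by their values or range, and from each list of other genes the 3 largest changes past the threshold could be named. Further genes are marked as named after their values were seen, and marker and targeted genes serve as checks. In those lists Fermt1, Cldn4, Tnc, Thbs1 and Ccr2 also reached 1 TPM in no WT liver. Some genes of these families and lists are not reported here. Separate animals make the replicates, so p-values measure the spread between mice.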

Additional observations from a re-analysis of the deposited data

How the results depend on the processing

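The calls of Itga3, Itga5, Itga8, Itgal, Itgav, Itgb2, Lama5 and Lamc1 held in both models under each alternative that kept the 0.05 threshold. At an adjusted p under 0.01 the members called were 9 in YAP1 KO and 8 in YKTH. Leaving out 1 liver gave 11 to 13 members in YAP1 KO and 10 to 15 in YKTH, where the lowest count came without WT (mixed) LM227 and without YKTH LM250. The difference between the models called 0 members under each alternative. Values that changed sign were not called in either direction, and the cause was not tested. Without scaling these were Itga1 (0.17) and Lama4 (0.071) in YAP1 KO, and Itga1 (0.17), Itga7 (0.26), Lama1 (0.0076) and Lamb2 (0.21) in YKTH. With quantile normalization they were Itga4 (-0.032), Itgb3 (-0.19), Itgb7 (-0.043) and Lamb3 (-0.21) in YAP1 KO. With 1 liver left out, Itgb3 ranged from -0.071 to 0.16, Lamb3 from -0.010 to 0.11 and Itga4 from -0.0075 to 0.32 in YAP1 KO, and Itga7 from -0.19 to 0.16, Lamb2 from -0.092 to 0.018 and Lama1 from -0.28 to 0.054 in YKTH. No paired analysis was possible because the labels give each mouse its own number and no number is shared between groups. Beside the gains without 1 liver, Itga7 in YAP1 KO and Itgb3, Itgb1 and Itgb5 in YKTH passed the threshold without scaling, and with quantile normalization Lama1 in YAP1 KO and Itgb1, Itgb5 and Lamb3 in YKTH did. The reads counted per liver are not in the deposited TPM, so values under 1 TPM are given without a counting error.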
